A study of Solanum tuberosum with 9 samples.

Results

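Transcript levels in stolons of the potato variety Kexin 13 were compared between plants given excess nitrogen (treatment AN2, libraries AN2-1 to AN2-3) and nitrogen-deficient plants (treatment AN0, libraries AN0-1 to AN0-3). These are 6 of the 9 libraries of the series. The other 3 are stolons under conventional nitrogen (AN1), which entered the shared statistical model and are given beside some values. All 3 treatments share the variety and the tissue, and the labels give no plant age, nitrogen dose or sampling time. Nor do they say whether each library stands for another plant, so the p-values speak to the scatter among the libraries alone, part of which may be technical. The members are all genes with enough counts to test, 21223 of the 25702 in the count table, and 4479 genes were too low to be tested.

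A stolon is an underground shoot that either keeps elongating or swells at its tip into a tuber. Swelling comes with starch deposition and with the build-up of storage proteins, chiefly patatin, and of protease inhibitors. Plants take up nitrate, which nitrate reductase turns into nitrite and nitrite reductase into ammonium, and ammonium then enters amino acids through glutamine synthetase. Of the genes tested, 451 carry a name or a named synonym in the RefSeq gene table for the assembly SolTub_3.0. The other 20772 are known by a LOC number alone and hold 88.3% of all counts in the count table of the series. They are given here by number, with no role attached.

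Library totals ran from 30952622 to 38235348 counts over the series. Across genes on the log2 CPM scale, libraries correlated at 0.894 to 0.939 within AN0, at 0.885 to 0.957 within AN2 and at 0.829 to 0.929 between an AN0 and an AN2 library, so the ranges within and between treatments overlapped (genes are not independent replicates). AN0-1 and AN2-3 stood apart. The summed level of 6 storage protein and protease inhibitor genes, which mark tuber tissue, was 8485, 37506 and 46514 CPM in AN0-1 to AN0-3 and 13545, 46705 and 1556 CPM in AN2-1 to AN2-3, with none of the 6 at 0 in any of these libraries. The sum does not describe each member. In 1 of the 6, LOC102577839, all AN2 libraries were above all AN0 libraries (log2 fold change 0.95, not called). The summed level of 8 photosynthesis genes, which mark green tissue, was 761, 97.2 and 23.7 CPM in AN0-1 to AN0-3 and 74.9, 75.6 and 607 CPM in AN2-1 to AN2-3. Of these 8 genes, 5 were at 0 in AN0-3, 1 in AN2-1 and 4 in AN2-2. The labels give the tissue only as stolon, and in bulk RNA fewer cells of a type and less RNA per cell cannot be told apart.

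Under excess nitrogen more genes rose than fell. At a Benjamini-Hochberg adjusted p under 0.05 in edgeR's quasi-likelihood test, here named a call, 774 genes were called, 3.65% of those tested. Of these, 498 were higher in AN2 (2.35%) and 276 were lower (1.30%), so that 64.3% of the calls were rises. All but 20 of the called genes are known by number only, 488 of the rises and 266 of the falls, as are 20772 of the 21223 genes tested. The count depends on the libraries and the tool. It was 378 without AN0-1, 110 without AN0-2, 350 without AN1-1, 490 without AN1-2, 276 without AN1-3, 155 without AN2-1 and 312 without AN2-3, but 666 without AN0-3 and 1077 without AN2-2, and 296 without both AN0-1 and AN2-3. The 6 AN0 and AN2 libraries fitted alone gave 119 calls, 86 higher and 33 lower. DESeq2 called 2784 genes, 55.0% of them higher, and voom with quality weights called 5881, 48.8% of them higher. A limma fit on log2(FPKM + 1) called 1277 genes, of which 78.1% were higher, on a scale where the median gene stood 0.16 above 0.

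Most changes across the expressed genes were small. The middle of the 21223 log2 fold changes lay at 0.01, with the quartiles at -0.38 and 0.44 and the 5th and 95th percentiles at -1.40 and 1.81, so the upper tail was the longer of the pair. Absolute log2 fold changes passed 1 in 4195 genes (19.8%), of which 2432 were positive and 1763 negative. They passed 2 in 1421 genes, 874 positive and 547 negative, and 3 in 600 genes, 370 positive and 230 negative. These counts rest on estimates and include many genes that were not called. Among the called genes the median log2 fold change was 2.21 for rises and -1.94 for falls, and the smallest called changes were 0.76 and -0.77. Of the 498 rises, 292 passed a log2 fold change of 2 and 153 passed 3, against 134 and 75 of the 276 falls.

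**Figure D1:**
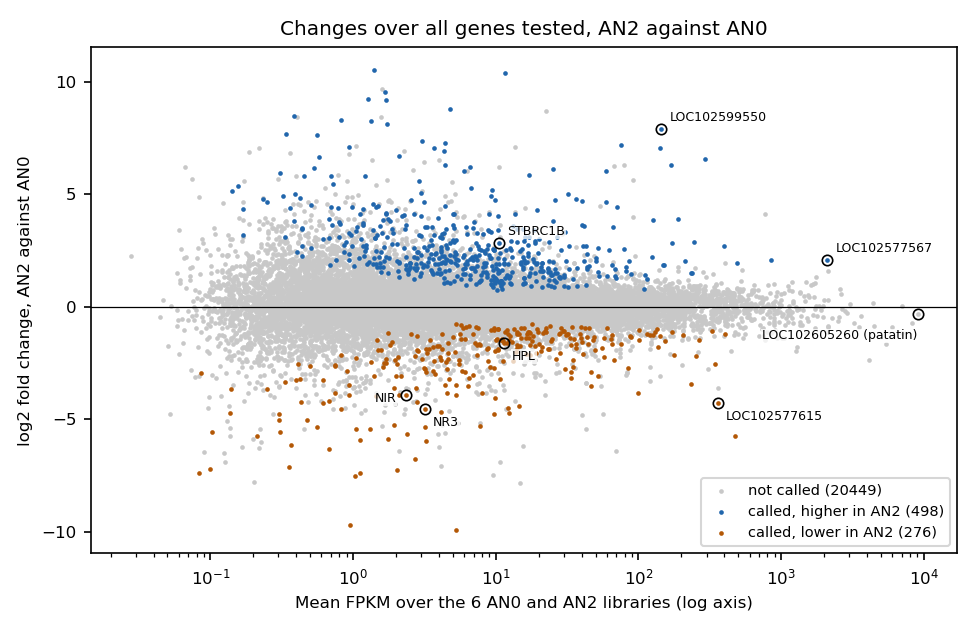
The log2 fold change of AN2 against AN0 is plotted against the mean FPKM over the 6 libraries (log axis) for the 21223 genes tested, one point a gene, with rises called at an adjusted p under 0.05 in blue (498), falls in orange (276) and genes not called in grey. Called genes lie mostly between 1 and 100 FPKM, as do most genes tested. The most abundant genes, with patatin (LOC102605260) at the far right, are almost all grey, where 3.65% of all genes tested were called.

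Calls were spread over nearly the whole range of expression and were rarest at its ends. Between 1 and 10 FPKM, a level per gene length and library total, 374 of 8822 genes were called (4.24%), 264 higher and 110 lower. Between 10 and 100 FPKM 163 of 7939 genes were called higher and 111 lower (3.45%), and between 100 and 1000 FPKM 20 of 1117 were called higher and 21 lower (3.67%). Below 1 FPKM 2.58% of 3258 genes were called. At 1000 FPKM or more 1 of 87 genes was called (1.15%). The rises had a median level of 6.60 FPKM and the falls of 9.44 FPKM, against 7.56 FPKM for all genes tested. Long non-coding RNAs were called in 2.05% of 1026 cases, 14 higher and 7 lower, and protein-coding genes in 3.73% of 20165, but the non-coding RNAs were also lower in level, at a median of 1.57 FPKM against 8.16 FPKM.

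As shares of the library, the called rises took 0.461%, 0.379% and 0.393% of counts in AN0-1 to AN0-3 and 1.83%, 1.48% and 2.63% in AN2-1 to AN2-3. The called falls took 2.88%, 2.78% and 2.12% in AN0 and 0.857%, 0.796% and 0.899% in AN2. These shares do not overlap between the treatments, which the choice of called genes fixes. In the AN1 libraries, which were not part of this contrast, the rises took 0.636% to 0.686% and the falls 1.13% to 1.35%. The AN1 mean lay between the AN0 and AN2 means for 429 of the 498 rises and for 237 of the 276 falls. On a log2 scale of CPM with 0.1 added it was nearer AN0 for 401 of the rises and nearer AN2 for 172 of the falls. This position is a description, since the rises and falls were chosen on both outer treatments.

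In 4892 genes (23.1%) the 3 AN2 libraries did not overlap with the 3 AN0 libraries, 2763 of them higher (13.0%) and 2129 lower (10%), and all 774 called genes are among them. An unadjusted p under 0.05 was reached by 4333 genes (20.4%). The spread was wide. The median SD of log2 CPM within a treatment was 0.47 in AN0 and 0.42 in AN2 against 0.30 in AN1, and edgeR put the common coefficient of variation between libraries at 0.417. AN2-3 was the highest AN2 library of 318 of the 498 rises, while AN2-2 was the lowest AN2 library of 294 of them. Among the falls AN0-1 was the highest AN0 library of 123 of 276 genes, and AN0-3 was the lowest AN0 library of 137. The same shares over all genes tested were not computed. Without AN2-3, 65.4% of the calls were rises, beside 64.3% with all libraries.

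Leaving out each of the 9 libraries in turn left 79 genes called in all 9 fits, 55 higher and 24 lower. A further 70 genes were called in 8 of the fits and 60 in 7, while 167 were called in 1 fit only and 54 in none. All 774 genes kept the sign of their fold change in every alternative fit that tested them, which says nothing of stability, since the choice of genes whose groups do not overlap all but fixes it. Of the 79 genes, 5 have names: NR3, HPL, STBRC1B, IAA2 and LOC102588954, whose synonym is FBPase. The other 74 are LOC numbers.

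**Figure D2:**
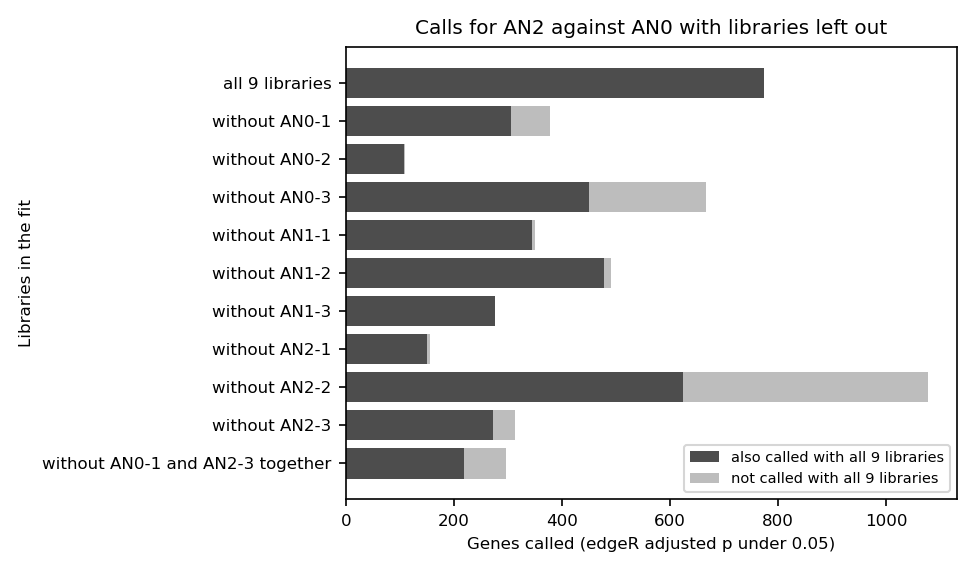
The bars give the number of genes called for AN2 against AN0 (adjusted p under 0.05) in the fit of all 9 libraries, in the 9 fits that leave out 1 library each, and without AN0-1 and AN2-3 together, split into genes also called with all 9 libraries (dark) and genes not called there (light). The count runs from 110 without AN0-2 to 1077 without AN2-2, beside 774 with all libraries.

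The steadiest changes were of a few genes known by number, picked out here after their values were seen. LOC102588485 had the smallest adjusted p of all genes, with 1.14, 1.95 and 1.40 CPM in AN0-1 to AN0-3 and 40.2, 34 and 46.1 CPM in AN2-1 to AN2-3. The treatments were far apart and each varied little, with AN1 between them at 4.62 to 8.07 CPM, and the log2 fold change was 4.74 ± 0.32 (SE; adjusted p = 0.00176 by edgeR). LOC102585354 followed, at 2.99, 4.76 and 4.74 CPM against 40.4, 36.1 and 48.9 CPM, a log2 fold change of 3.33 ± 0.25 (adjusted p = 0.00191). Among the falls LOC102587372 came first, at 16.4, 12.3 and 21.1 CPM in AN0 and 1.27, 1.55 and 1.68 CPM in AN2. Its log2 fold change was -3.46 ± 0.30 (adjusted p = 0.00316), and its AN1 libraries, at 1.67 to 2.15 CPM, lay close to AN2. LOC102580120, one of the more abundant of the 79 at 127 FPKM, had 12.6, 16.1 and 18.1 CPM in AN0 and 188, 277 and 199 CPM in AN2, with a log2 fold change of 3.83 ± 0.39 (adjusted p = 0.00445).

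The largest rises among genes averaging 10 CPM or more were low in AN0 and detected in all AN2 libraries. Their choice by size of rise and mean level all but fixes this. LOC102599550 rose the most, from 0.333, 1.15 and 1.70 CPM in AN0-1 to AN0-3 to 128, 246 and 374 CPM in AN2-1 to AN2-3, a log2 fold change of 7.88 ± 1.11 (adjusted p = 0.0105 by edgeR, and 0.0609 without AN0-2). Every AN2 library exceeded every AN0 library by a wide margin, and AN1 was spread between them, from 1.58 to 24.6 CPM. LOC102577501, the most abundant of these at 294 FPKM, rose from 2.47, 8.63 and 1.49 CPM to 115, 190 and 888 CPM, by 6.56 ± 1.05 on the log2 scale (adjusted p = 0.0176, and 0.0507 without AN0-1). Its AN2-3 value was the highest by far, and without AN0-1 and AN2-3 together its log2 fold change was 4.94. LOC102596984 was likewise highest in AN2-3, with 1.41, 4.24 and 1.67 CPM in AN0 against 64.1, 124 and 396 CPM in AN2 and a log2 fold change of 6.31 ± 0.84 (adjusted p = 0.00965), and it was called in all 9 fits that left out a library.

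LOC102591434 differed from these in its evenness. It had 0.471, 0.430 and 0.149 CPM in AN0, at most 1.57 CPM in AN1, and 18.1, 20.0 and 22.6 CPM in AN2. AN2 alone was high, with little spread, and the log2 fold change was 5.83 ± 0.52 (adjusted p = 0.00359 by edgeR, called in all 9 fits). LOC102589092 rose by 6.03 ± 0.89 on the log2 scale, from 1.36, 1.23 and 1.58 CPM to 51.4, 79.2 and 143 CPM (adjusted p = 0.0129, and 0.0664 without AN0-2).

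The other 3 of the 8 largest rises were by far the highest in AN2-3. LOC102588710 had 0.222, 1.06 and 0.447 CPM in AN0 and 16.7, 2.23 and 231 CPM in AN2. The lowest AN2 library was only about 1 CPM above the highest AN0 library, and the call (log2 fold change 7.17 ± 1.63, adjusted p = 0.0476 by edgeR) held in only 1 of the 9 fits that left out a library, the one without AN2-2. Its adjusted p was 0.0678 to 0.131 without any other single library. LOC102597309 had 6.69, 10.5 and 66.3 CPM in AN2 against at most 1.06 CPM in AN0 (log2 fold change 6.14 ± 1.30, adjusted p = 0.0377), and was also called only without AN2-2. LOC102596594 had 22.5, 49.7 and 373 CPM in AN2 against at most 2.58 CPM in AN0 (7.05 ± 1.39, adjusted p = 0.0303). It lost the call without AN0-2, AN0-3 or any 1 of the AN1 libraries, with an adjusted p of up to 0.118. Without AN2-3 it stayed called, with a log2 fold change of 5.01 (adjusted p = 0.0468 by edgeR).

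**Figure D3:**
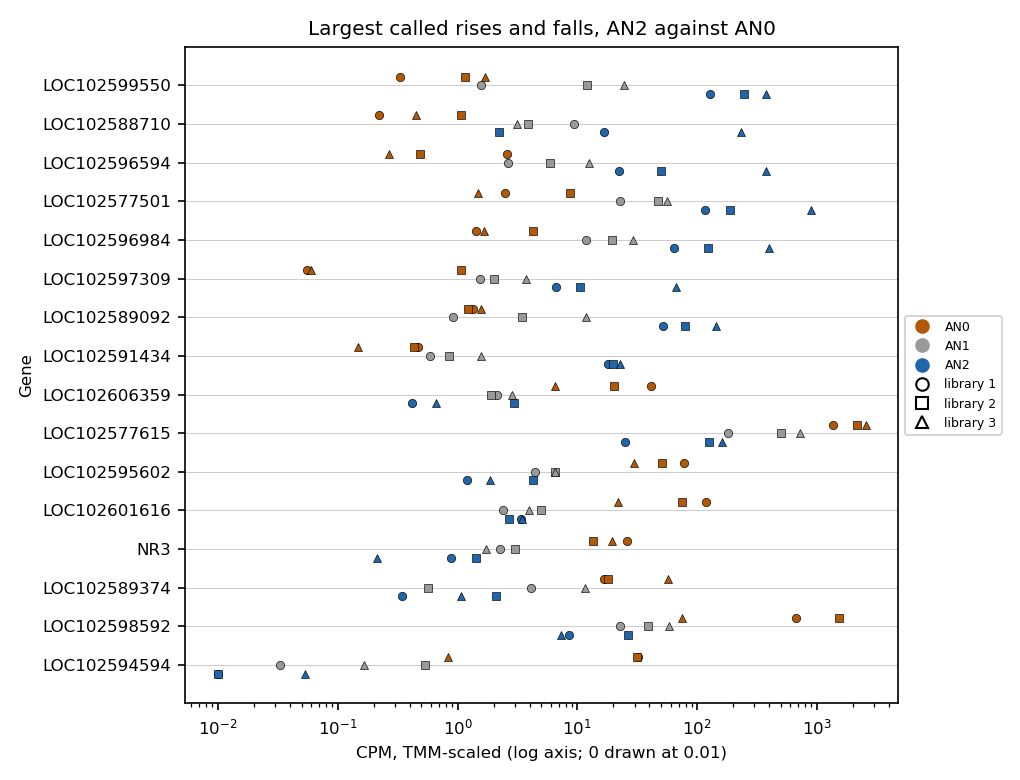
CPM (log axis) is shown for the 8 largest called rises and the 8 largest called falls among genes averaging 10 CPM or more whose AN0 and AN2 libraries do not overlap, one point a library, coloured by treatment. AN1 points mostly lie between the outer treatments, and the AN2 points of LOC102588710 reach from 2.23 to 231 CPM.

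The largest falls were of genes detected in deficient stolons, which their choice by size of fall and mean level all but fixes. LOC102598592 was the most abundant of the 8, at 471 FPKM over the 6 libraries, with 673, 1515 and 74.9 CPM in AN0-1 to AN0-3 and 8.49, 26.7 and 7.28 CPM in AN2-1 to AN2-3. AN0-3 was far below the other AN0 libraries but still above all of AN2, and the log2 fold change was -5.74 ± 1.08 (adjusted p = 0.0266 by edgeR). The call was lost without AN0-1, AN0-2, AN1-3, AN2-1 or AN2-3, with adjusted p-values of 0.0501 to 0.107. LOC102577615 had the most counts of these 8, at 1364, 2155 and 2558 CPM in AN0, 182, 502 and 721 CPM in AN1 and 25.2, 125 and 160 CPM in AN2. The 3 treatments did not overlap, AN1 lay between, and the log2 fold change was -4.29 ± 0.76 (adjusted p = 0.0241, but 0.0753 without AN0-2 and 0.0501 without AN2-1).

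LOC102601616 fell from 119, 74.7 and 21.9 CPM to 3.37, 2.70 and 3.47 CPM, with a log2 fold change of -4.50 ± 0.59 (adjusted p = 0.00933 by edgeR). LOC102595602 fell from 78.1, 50.5 and 29.5 CPM to 1.20, 4.28 and 1.87 CPM, with a log2 fold change of -4.43 ± 0.55 (adjusted p = 0.00762). In both genes AN0-1 was the highest library, and both were called in all 9 fits that left out a library. LOC102589374 had 16.5, 18.1 and 56.9 CPM in AN0 and at most 2.11 CPM in AN2 (log2 fold change -4.71 ± 1.09, adjusted p = 0.0490) and was called in 1 of the 9 fits. LOC102606359 had 40.9, 20.0 and 6.5 CPM in AN0 and at most 2.95 CPM in AN2 (-4.08 ± 0.85, adjusted p = 0.0366) and was called in 2 of the 9 fits. LOC102594594 had 31.8, 31.5 and 0.835 CPM in AN0 and 0, 0 and 0.0534 CPM in AN2. With 2273 counts in AN0 against 2 in AN2, the ratio of counts per TMM-scaled library total was 1204 (adjusted p = 0.0229 by edgeR). The exact 95% interval of this ratio, 333 to 9951, covers counting error only. The AN0 values are themselves uneven, and the call was lost without AN0-2, AN2-1 or AN2-3, with adjusted p-values of up to 0.0881.

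With 1 exception the most abundant transcripts of the stolon did not pass the test, and many of them varied more within a treatment than between treatments. Of the 87 genes at 1000 FPKM or more, 66 known by number only, 33 had a positive and 54 a negative fold change. In 6 of them all AN2 libraries were above all AN0 libraries and in 9 all were below, against the 13.0% and 10% of all genes tested. Together the 87 genes took 15.8%, 21.2% and 23.3% of counts in AN0-1 to AN0-3 and 14.9%, 23.3% and 10.9% in AN2-1 to AN2-3, so that AN0-1, AN2-1 and AN2-3 were low and the treatments overlapped. In these libraries the summed level of the 6 storage genes was lowest as well, though not that of each gene.

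Patatin, LOC102605260 with pat1 among its synonyms, was the most abundant gene at 9034 FPKM. It had 3516, 13487 and 19688 CPM in AN0-1 to AN0-3 and 8963, 19509 and 400 CPM in AN2-1 to AN2-3. The treatments overlapped fully and differed less than the libraries within them, with a log2 fold change of -0.35 ± 1.03 (adjusted p = 0.891 by edgeR). The sign turned to 0.18 without AN0-3 and to 0.22 without AN2-3. The 3 Kunitz-type protease inhibitor genes among the 12 most abundant were likewise lowest in AN2-3, and they were low in AN0-1 and AN2-1. LOC102577642, with the synonym KTI-B, had 2848, 9466 and 12984 CPM against 870, 10504 and 19.5 CPM, a log2 fold change of -1.15 ± 1.42 (adjusted p = 0.706). LOC102604256 (KTI-A), at -0.44 ± 1.21, and LOC102577909 (KTI-C), at -0.93 ± 1.27, were not called either, and the sign of LOC102604256 turned without AN0-2 (0.03) or without AN2-3 (0.14). These genes belong to families of similar copies, so their single values are uncertain.

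Abundant genes known by number also varied widely within treatments. LOC102580584 had 2171, 6903 and 7240 CPM in AN0 and 176, 5015 and 3.25 CPM in AN2, a range in AN2 of over 3 powers of 10 (log2 fold change -1.65 ± 1.60, adjusted p = 0.618 by edgeR). LOC102599310, the second most abundant gene at 8257 FPKM, had 4912, 4863 and 8182 CPM against 2172, 7971 and 676 CPM (-0.73 ± 0.74, adjusted p = 0.635). LOC102589278 had 3396, 2305 and 5517 CPM against 1097, 5300 and 373 CPM (-0.73 ± 0.80, adjusted p = 0.668). In all 3 genes AN2-2 lay within the range of AN0 and AN2-3 was the lowest library. LOC102577555 had 839, 4456 and 6241 CPM against 3549, 7785 and 554 CPM, and its log2 fold change of 0.04 ± 0.87 (adjusted p = 0.984) has no settled sign, since it was -0.43 without AN0-1 and -0.91 without AN2-2. LOC102587142 was the steadiest of these genes, with 2528, 3543 and 4217 CPM against 2869, 5662 and 2798 CPM (0.14 ± 0.39, adjusted p = 0.881), and its sign turned without AN0-1 (-0.04) or AN2-2 (-0.28).

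Other abundant genes separated by treatment without a call. LOC102580808, the gene with the most counts, had 18964, 19067 and 14651 CPM in AN0 and 8495, 10936 and 9015 CPM in AN2, with AN1 near AN0 at 14949 to 16950 CPM. All AN2 libraries were below all AN0 libraries, and the log2 fold change was -0.89 ± 0.36 (adjusted p = 0.200 by edgeR, DESeq2 0.000238). LOC102577431 had 11507, 13787 and 11645 CPM against 6586, 8157 and 5881 CPM (-0.84 ± 0.35, adjusted p = 0.211, DESeq2 0.00188). LOC102605262 had 5013, 6000 and 4705 CPM against 636, 2409 and 28.9 CPM (-2.35 ± 1.09, adjusted p = 0.263), low in all AN2 libraries and lowest in AN2-3, and without AN0-1 and AN2-3 the log2 fold change was -1.80. GBSS, the granule-bound starch synthase that makes amylose, separated in the same direction, with 3735, 5466 and 7300 CPM against 1957, 2020 and 187 CPM (-1.99 ± 0.74, adjusted p = 0.163). Chosen after its values were seen, LOC102577512, whose synonym is dnaJ, a name used for co-chaperones of heat-shock proteins, had 4778, 5102 and 4218 CPM against 1747, 2786 and 1856 CPM (-1.14 ± 0.32, adjusted p = 0.0817). Also chosen so, LOC102589834, with the synonym ERD10C of the dehydrin family, was even in AN0 at 646 to 650 CPM and higher in AN2 at 709, 1226 and 1056 CPM (0.62 ± 0.32, adjusted p = 0.311).

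**Figure D4:**
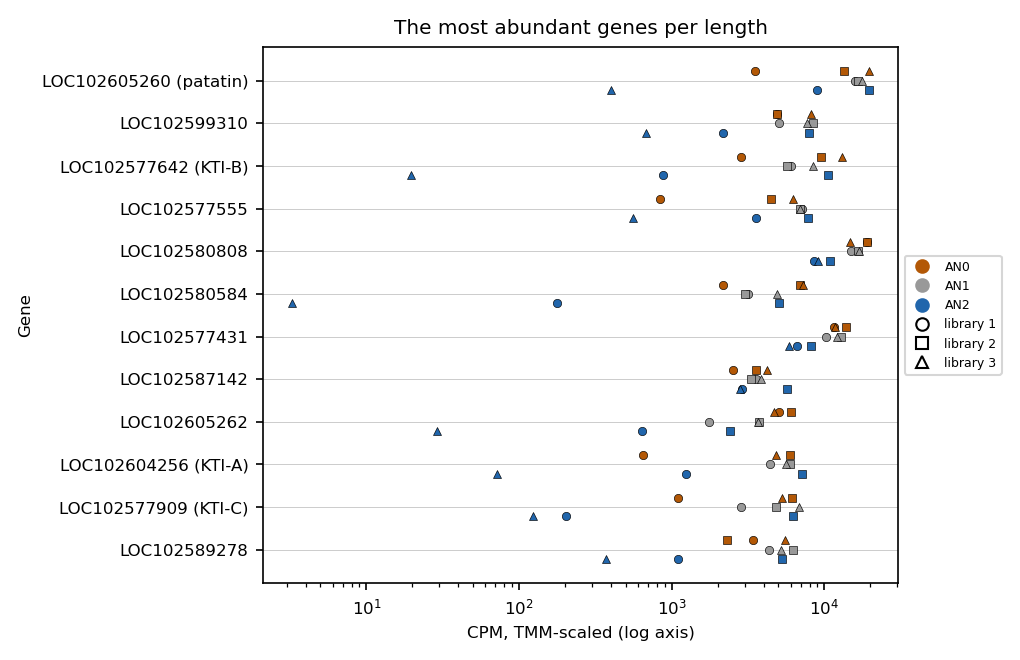
CPM (log axis) is shown for the 12 genes with the highest mean FPKM, one point a library, coloured by treatment and shaped by library number. AN2-3 often stands far to the left of the rest, as in LOC102580584 at 3.25 CPM, while LOC102580808 and LOC102577431 have all AN2 points left of the AN0 points.

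The called rises with the most counts were even among replicates, with log2 fold changes below the median called rise of 2.21. LOC102577567, the single call at 1000 FPKM or more with 2103 FPKM, rose from 526, 391 and 451 CPM in AN0-1 to AN0-3 to 1584, 2203 and 1945 CPM in AN2-1 to AN2-3. AN1 lay between, at 585 to 1064 CPM, and the log2 fold change was 2.07 ± 0.32 (adjusted p = 0.0160 by edgeR, but 0.0823 without AN0-2). LOC102605015 showed the same pattern at a lower level, with 193, 155 and 187 CPM against 560, 906 and 759 CPM (2.05 ± 0.35, adjusted p = 0.0218, but 0.0959 without AN0-2). LOC102599348 rose from 127, 109 and 146 CPM to 403, 485 and 689 CPM (2.04 ± 0.27, adjusted p = 0.00965, but 0.0566 without AN0-2). LOC102584024 rose from 111, 83.0 and 145 CPM to 387, 430 and 470 CPM (1.92 ± 0.27, adjusted p = 0.0101, but 0.0549 without AN0-2). The fifth, LOC102604696 with the synonym StSSR1, a sterol side chain reductase, rose from 261, 250 and 188 CPM to 742, 510 and 699 CPM (1.48 ± 0.27, adjusted p = 0.0259). It was called in 3 of the 9 fits that left out a library, those without AN0-1, AN1-2 or AN2-2.

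Among the called falls with the most counts, LOC102577597 fell from 2250, 2293 and 1075 CPM to 279, 404 and 270 CPM, with AN1 at 433 to 714 CPM (log2 fold change -2.56 ± 0.40, adjusted p = 0.0160 by edgeR, but 0.0609 without AN0-2 and 0.0722 without AN2-1). LOC102579479 fell from 1213, 954 and 1146 CPM to 432, 418 and 336 CPM, and its AN1 libraries, at 441 to 557 CPM, were near AN2 (-1.48 ± 0.26, adjusted p = 0.0222). It lost the call without AN0-2, AN1-3, AN2-1 or AN2-3, with adjusted p-values of up to 0.0779. LOC102588246 fell from 1080, 1402 and 1063 CPM to 515, 592 and 558 CPM (-1.09 ± 0.25, adjusted p = 0.0498). Its groups are well apart, yet no fit that left out 1 library called it, with adjusted p-values of 0.0547 to 0.175. LOC102602192, a 9-lipoxygenase gene by its LOX1 synonyms, fell from 846, 1262 and 1627 CPM to 45.1, 96.3 and 208 CPM (-3.42 ± 0.61, adjusted p = 0.0246, but 0.0769 without AN0-2 and 0.0687 without AN2-1).

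Of the 1765 genes averaging 100 CPM or more that were not called, those with the largest fold changes were uneven within a treatment. The choice of large changes without a call all but fixes this. LOC107057685 had 156, 27.7 and 7.81 CPM in AN0 and 471, 661 and 2215 CPM in AN2, a log2 fold change of 4.12 ± 1.16 (adjusted p = 0.0819 by edgeR). Its groups did not overlap, and without AN0-1 and AN2-3 the change was 5.02 (adjusted p = 0.0457). LOC102598541, a further lipoxygenase with LOX1 synonyms, had 1129, 1616 and 2391 CPM against 23.4, 313 and 82.0 CPM (-3.62 ± 0.88, adjusted p = 0.0566). LOC102577681 had 53.7, 309 and 235 CPM against 9.78, 55.8 and 4.11 CPM (-3.10 ± 0.99, adjusted p = 0.114), where AN0-1 overlapped with AN2-2. LOC102606020 had 591, 15.5 and 0.0298 CPM in AN0 and 0.659, 0.0310 and 76.5 CPM in AN2, with the high values in AN0-1 and AN2-3, the libraries that were also highest in the photosynthesis markers. Its log2 fold change of -2.97 ± 2.56 (adjusted p = 0.567) turned to 1.72 without AN0-1.

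Genes with names were grouped into 23 lists by their known roles, with 237 tested members, of which 15 were called, beside 3.65% of all genes tested. No list had more than 4 called members. Of 8 genes of nitrogen uptake and assimilation, the 2 reductases were called, both lower, beside 1.30% of all genes tested, and the rest were not. NR3, a nitrate reductase, fell from 25.8, 13.5 and 19.4 CPM in AN0 to 0.878, 1.43 and 0.213 CPM in AN2, with AN1 at 1.71 to 3.04 CPM (log2 fold change -4.55 ± 0.62, adjusted p = 0.00965 by edgeR). It was called in all 9 fits that left out a library. NIR, a nitrite reductase, fell from 12.5, 8.72 and 2.83 CPM to 0.415, 0.434 and 0.694 CPM (-3.95 ± 0.71, adjusted p = 0.0244), and lost the call without AN0-1, AN0-2, AN2-1 or AN2-3, with adjusted p-values of 0.0518 to 0.0946. LOC102596783, a glutamine synthetase by its synonym gln, had 219, 203 and 210 CPM against 152, 116 and 195 CPM, apart but not called (-0.45 ± 0.24, adjusted p = 0.326). The median log2 fold change of the 8 genes was -0.39, beside 0.01 over all genes tested.

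Of the starch and sugar genes, 1 of starch synthesis and 1 of sucrose and hexose metabolism were called, both lower, where 1.30% of all genes tested were called lower and 10521 of 21223 had a negative fold change. Of 9 genes of starch synthesis, 8 had a negative fold change and the median was -1.38. The called gene, LOC102583115 with the synonym SS2, a soluble starch synthase, fell from 445, 678 and 603 CPM to 218, 200 and 74.3 CPM (log2 fold change -1.81 ± 0.40, adjusted p = 0.0427 by edgeR), and was called only without AN2-2 or AN2-3 among the 9 fits, its adjusted p reaching 0.131 without AN0-2. All 5 genes of starch breakdown had negative fold changes with a median of -0.87 and no call. R1, the glucan water dikinase that phosphorylates starch, had 1057, 914 and 717 CPM against 522, 429 and 557 CPM (-0.83 ± 0.29, adjusted p = 0.136). Of 14 genes of sucrose and hexose metabolism, 12 were negative with a median of -0.22. The 1 call, LOC102588954 (FBPase, the fructose bisphosphatase of the path to sucrose), fell from 14.5, 11 and 10.8 CPM to 1.32, 2.27 and 1.73 CPM, low and even in all AN2 libraries (-2.77 ± 0.38, adjusted p = 0.00965). In most starch genes AN2-3, the library with the lowest summed level of the storage genes, was also the lowest. SS2 kept a log2 fold change of -1.60 (adjusted p = 0.0312 by edgeR) without AN0-1 and AN2-3.

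The list of lipoxygenase and jasmonate genes had the lowest median, -1.64, with 8 of 9 members negative, beside 10521 of all 21223 genes tested. LOC102602192 and HPL were called, both lower, beside 1.30% of all genes. HPL, a hydroperoxide lyase that cleaves the products of lipoxygenases into volatile aldehydes, was even within each treatment, with 27.6, 24.3 and 23.2 CPM in AN0, 9.65, 7.35 and 9.48 CPM in AN1 and 8.10, 7.32 and 8.72 CPM in AN2 (log2 fold change -1.64 ± 0.20, adjusted p = 0.00762 by edgeR). AN1 stood with AN2 and apart from AN0. LOC102588225, whose synonym StDES names a divinyl ether synthase, had 84.0, 80.1 and 241 CPM against 18.4, 19.3 and 0.267 CPM without a call (-3.42 ± 1.11, adjusted p = 0.117).

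Of 23 tested regulators of tuberization, flowering and meristems, 4 were called, all higher, beside 2.35% of all genes tested. The median was 0.40 with 14 positive, beside 0.01 and 10702 of 21223 over all genes. STBRC1B, of the TCP factor class that holds back bud outgrowth, rose from 3.44, 2.64 and 2.83 CPM to 26.9, 12.5 and 23.4 CPM (log2 fold change 2.82 ± 0.35, adjusted p = 0.00762 by edgeR), with AN1 near AN0 at 3.22 to 5.33 CPM. It was called in all 9 fits that left out a library. TSF, named after a relative of the florigen FT in Arabidopsis, rose from 9.26, 10.3 and 3.85 CPM to 38.2, 27.5 and 66.8 CPM (2.50 ± 0.44, adjusted p = 0.0241, but 0.0507, 0.0692 and 0.0658 without AN0-1, AN0-2 and AN2-1). LOC102600588, with the synonym StPCL1 after a clock factor of Arabidopsis, rose from 10.03, 12.5 and 11.1 CPM to 20.3, 20.0 and 26.4 CPM (0.99 ± 0.19, adjusted p = 0.0289), and here AN1 stood with AN2 at 18.4 to 20.3 CPM. It was called only without AN1-2 or AN2-2 among the 9 fits. AP1 rose from 1.03, 0.746 and 0.865 CPM to 4.10, 3.51 and 2.59 CPM (1.95 ± 0.38, adjusted p = 0.0296, called in 3 of the 9 fits). BEL5, a homeodomain factor that promotes tuber formation in potato, had 242, 148 and 138 CPM against 145, 116 and 72.0 CPM and was not called (-0.66 ± 0.35, adjusted p = 0.322).

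Further calls in lists were of single genes, where 2.35% of all genes tested were called higher and 1.30% lower. LOC102598594, with the synonym NDA1 of an alternative NADH dehydrogenase of mitochondria, rose from 0.859, 0.430 and 0.835 CPM to 3.25, 2.14 and 4.72 CPM (log2 fold change 2.25 ± 0.51, adjusted p = 0.0480 by edgeR, called only without AN2-2 among the 9 fits), 1 of 13 respiration genes. PT1, a phosphate transporter, fell from 99.5, 77.6 and 73.6 CPM to 37.3, 31.3 and 51.4 CPM (-1.06 ± 0.23, adjusted p = 0.0406, called in 2 of the 9 fits), 1 of 6 genes of phosphate and proton pumps. Its AN1 libraries stayed near AN0 at 88.2 to 94.8 CPM. PR-5/319, of a pathogenesis-related protein family, fell from 11.6, 4.44 and 1.70 CPM to 0, 0.0931 and 0.187 CPM (adjusted p = 0.0322, called in 2 of the 9 fits), 1 of 12 defence genes.

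**Figure D5:**
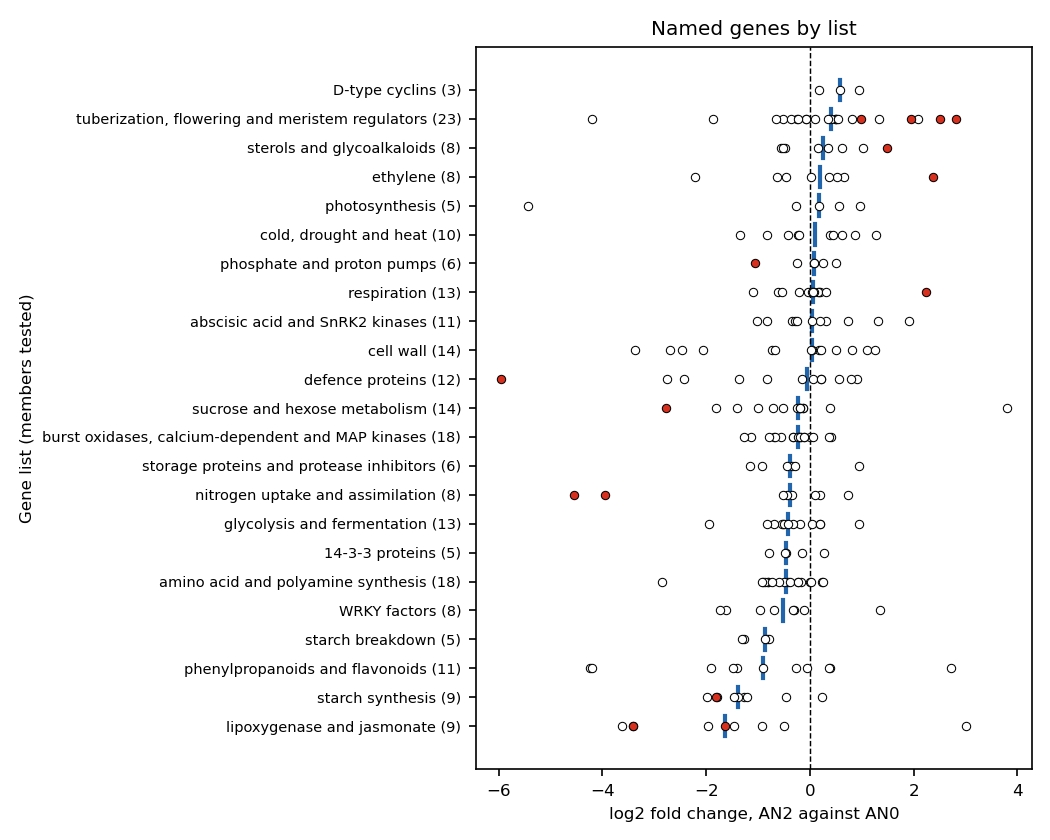
Each circle is the log2 fold change of 1 tested gene of a list, AN2 against AN0, with called genes filled in red and others open, a blue bar at the median of each list and a dashed line at the median of all genes tested, 0.01. The medians run from -1.64 for lipoxygenase and jasmonate genes to 0.59 for the 3 D-type cyclins, and 15 of 237 circles are filled.

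Further lists held no called member. Their median log2 fold changes were -0.90 over 11 phenylpropanoid and flavonoid genes, -0.51 over 8 WRKY factors, -0.46 over 18 genes of amino acid and polyamine synthesis, -0.46 over 5 genes for 14-3-3 proteins, -0.41 over 13 genes of glycolysis and fermentation, -0.39 over the 6 storage genes and -0.22 over 18 burst oxidases and kinases of calcium and MAP signalling. In the amino acid and kinase lists 15 of 18 members each were negative, and in the WRKY list 7 of 8, against 10521 negative of 21223 tested. Medians near 0 were found for 11 genes of abscisic acid signalling (0.03), 14 of the cell wall (0.03) and 10 of cold, drought and heat (0.09). The 5 tested photosynthesis genes, at a median of 0.17, and the 3 D-type cyclins, at 0.59 with all 3 positive, were not called.

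Of the 20 named genes that were called, 5 stood outside the lists and were picked out after their values were seen, while AP1, also outside the naming rule, is given above. IAA2, of the Aux/IAA repressors of auxin response, rose from 13.5, 18.8 and 16.4 CPM to 45.3, 56.4 and 39.4 CPM, with AN1 between at 26.4 to 29.9 CPM (log2 fold change 1.54 ± 0.21, adjusted p = 0.00975 by edgeR, called in all 9 fits). VPE2, a vacuolar processing enzyme, fell from 80.1, 74.7 and 53.0 CPM to 25.3, 18.8 and 28.2 CPM, with AN1 lowest at 13.6 to 17.6 CPM (-1.52 ± 0.24, adjusted p = 0.0160, called in 7 of the 9 fits). RSI5 rose from 4.10, 3.18 and 8.50 CPM to 24.6, 21.7 and 34.9 CPM (2.36 ± 0.45, adjusted p = 0.0284, called in 4 of the 9 fits). LOC102577743, with the synonym pp34, rose from 60.8, 48.0 and 45.5 CPM to 100.6, 129 and 182 CPM (1.42 ± 0.28, adjusted p = 0.0319, called in 2 of the 9 fits). PDR2, of a family of ABC transporters, was low throughout, at 1.55, 1.03 and 0.507 CPM in AN0 and 0, 0 and 0.0534 CPM in AN2 (adjusted p = 0.0329, called in 1 of the 9 fits).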

How the data were processed

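The authors deposited a table of raw read counts per gene and a table of FPKM values (fragments scaled for gene length and library total), 1 column per library. The deposited FPKM equal count divided by length and library total, with a largest relative difference of 1.71e-07. Per the labels' protocols, TRIzol served for RNA extraction and the VAHTS Universal V6 kit for library preparation. fastp, HISAT2, HTSeq, R 3.2.0 and DESeq2 are named, without roles, per the submitters' processing notes. The build, annotation and strand setting were not given in the sources used here, so overlapping or antisense genes may share reads. IDs were matched to the RefSeq table of SolTub_3.0 (25672 of 25702).

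Counts of all 9 libraries were fitted with edgeR 4.0.16 in R 4.3.3 (TMM factors, filterByExpr, a mean per treatment, robust quasi-likelihood, 6 residual degrees of freedom) and AN2 was contrasted with AN0. SEs were computed as the size of the fold change over the square root of F. CPM are TMM-scaled. The code was tested on simulated data. DESeq2 1.42.0 and limma 3.58.1 served among 21 alternatives, which also changed the scaling, filter, libraries, replicate block and pseudocount (1 or 0.1 on FPKM).

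The genes named are the 8 largest called rises and 8 largest called falls averaging 10 CPM or more without overlap of the groups, the 12 highest by FPKM, the 5 called rises and 5 called falls highest in CPM, the 4 largest changes not called averaging 100 CPM or more, at most 3 called members per list, and NR3 and NIR, 52 genes in all. One gene that this rule names is not reported here. Others are marked in the text, or are list members given as examples. Members and lists were chosen with earlier results of these data known.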

Additional observations from a re-analysis of the deposited data

How the results depend on the processing

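The number of calls depended on the processing. Leaving out 1 library gave 110 to 1077 calls, with 69 to 678 higher and 33 to 399 lower, and leaving out AN0-1 and AN2-3 together gave 296 (185 higher, 111 lower), of which 219 were among the 774. DESeq2 called 2784 genes (1531 higher, 1253 lower) and voom with quality weights 5881 (2871 higher, 3010 lower). The fit of AN0 and AN2 libraries alone called 119 (86 higher, 33 lower). limma on log2(FPKM + 1) called 1277 (997 higher, 280 lower) and on log2(FPKM + 0.1) 1267 (982 higher, 285 lower), with the median of all genes at 0.16 and 0.21. DESeq2 size factors within edgeR, no filter, a filter of 1 CPM in 3 libraries and dispersions that were not robust gave 698 to 811 calls. The cause of these differences was not tested.

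The labels do not say whether the replicate numbers pair the libraries. Deviations of same-numbered AN0 and AN2 libraries from their treatment means correlated at -0.10, 0.08 and -0.47. With 3 libraries a treatment, these values cannot settle whether same-numbered libraries were paired. With the number as a replicate block, 166 genes were called (124 higher, 42 lower) over 9 libraries. With the block over AN0 and AN2 alone edgeR called 0 genes, 0 higher and 0 lower, while 2420 had an unadjusted p under 0.05.

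Over the 52 named genes, 825 alternative values kept direction and side of the threshold, 230 lost the call, 24 gained one and 12 changed sign. Those 12 belong to genes that were not called. LOC102605260 changed to 0.18 without AN0-3 and 0.22 without AN2-3 (lowest -1.39, without AN2-2). LOC102577555 changed to -0.26 under voom, -0.0017 under the block, -0.43 without AN0-1 and -0.91 without AN2-2 (highest 0.58, without AN0-3). LOC102587142 changed to -0.23 under voom, -0.04 without AN0-1 and -0.28 without AN2-2 (highest 0.32, without AN2-3). LOC102604256 changed to 0.03 without AN0-2 and 0.14 without AN2-3 (lowest -2.55, without AN2-2). LOC102606020 changed to 1.72 without AN0-1 (lowest -9.11, without AN2-3). With 3 libraries a treatment and this spread, changes of genes below 1 FPKM were poorly resolved (median SE 0.76, against 0.28 between 10 and 100 FPKM).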
